A study of Homo sapiens with 21 samples.

Results

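The comparison described here sets DAF-mut9 against mut9, a shortened EWS/FLI fusion with and without alanine in place of the repeat tyrosines of its EWS domain. It used 6 of the 21 RNA-seq libraries of the series, 3 DAF-mut9 and 3 mut9, chosen by their labels and not by any measured value. All libraries came from A673, a single Ewing sarcoma cell line, so each number counts separate knockdown and rescue experiments in 1 line and not separate tumours. In both groups a retroviral shRNA directed at the end of the endogenous fusion transcript was delivered on day 1. A retroviral cDNA followed on day 5, and the doubly selected cells were grown to day 16. Puromycin was used at 2 µg/ml and hygromycin at 400 µg/ml. The cDNA encoded mut9, which keeps only the start and the last stretch of the EWS domain, joined to FLI, or DAF-mut9, the same short form with every tyrosine of its degenerate hexapeptide repeats changed to alanine.

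Other groups, with 3 libraries each, are used where a value needs a reference. The iEF cells carried the same shRNA with an empty vector, and iLuc cells carried a luciferase shRNA with an empty vector and so kept the endogenous fusion. WT-EF, DAF and del22 cells carried the fusion shRNA with the full-length fusion, with the full-length fusion bearing tyrosine-to-alanine changes in part of its repeats, or with a form that lacks the EWS domain. The tyrosines replaced in DAF and in DAF-mut9 are not the same set. DAF keeps the tyrosines of its later repeats, whereas DAF-mut9 keeps none in its repeats.

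EWS/FLI joins the low-complexity amino-terminal domain of EWS to the ETS DNA-binding domain of FLI. The FLI part binds single GGAA motifs, and the EWS part gives the fusion the further ability to bind long GGAA microsatellites. The EWS part also recruits other EWS family proteins and chromatin regulators through its tyrosine-rich repeats. In Ewing sarcoma cells the fusion activates genes such as NR0B1 from microsatellites and keeps mesenchymal and matrix genes low.

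Because these microsatellites recur below, the longest GGAA runs near genes named here are shown first, as the GRCh37 reference genome has them. The repeat in A673 can differ in length. Capitals mark the uninterrupted run of GGAA units and lower case marks 10 flanking bases on each side. A window of 5 kb on either side of the start site of the principal transcript was searched on both strands for at least 4 consecutive units. Of 97 named genes, 7 carried such a run, and 6 of these were lower in DAF-mut9. Most of the 97 were named for the size of their change, and over all 926 tested genes with such a run 12.7% were lower and 5.08% higher. The 5 that had at least 8 units are printed 5′ to 3′ on the strand that reads GGAA, followed by the short run near IGFBP1, the only 1 of the 7 genes that was higher.
NR0B1, 11 units, chrX:30328865-30328928, minus strand, 1390 bases upstream of the start site: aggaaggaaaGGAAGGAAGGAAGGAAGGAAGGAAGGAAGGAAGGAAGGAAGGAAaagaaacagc
APELA, 14 units, chr4:165794488-165794563, plus strand, 3804 bases upstream: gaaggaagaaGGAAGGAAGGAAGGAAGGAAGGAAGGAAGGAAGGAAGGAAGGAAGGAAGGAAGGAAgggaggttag
SCNN1G, 13 units, chr16:23193057-23193128, plus strand, 973 bases upstream: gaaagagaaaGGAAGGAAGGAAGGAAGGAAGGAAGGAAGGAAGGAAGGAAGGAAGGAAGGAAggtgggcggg
CYP4F22, 12 units, chr19:15620659-15620726, minus strand, 1357 bases downstream, outside any annotated exon: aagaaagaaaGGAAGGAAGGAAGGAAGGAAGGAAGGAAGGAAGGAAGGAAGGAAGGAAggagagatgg
KCNA2, 13 units, chr1:111153632-111153703, plus strand, 4688 bases upstream: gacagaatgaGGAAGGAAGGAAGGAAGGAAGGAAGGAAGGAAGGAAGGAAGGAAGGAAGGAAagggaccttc
IGFBP1, 4 units, chr7:45923617-45923652, minus strand, 4452 bases upstream: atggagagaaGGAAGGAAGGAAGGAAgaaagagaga

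Sequencing depth was similar in both groups. The DAF-mut9 libraries held 41.1, 38.7 and 37.9 M counts and the mut9 libraries 43.8, 39.5 and 33.5 M. The DAF-mut9 libraries lay close together on the first principal component of the 6 libraries, at 34.8, 36.3 and 35.6, whereas mut9 replicates 1 to 3 were spread over -32.7, -49.8 and -24.2. This component held 73.8% of the variance. mut9 replicate 2 thus stood farthest from DAF-mut9. Levels are CPM, a gene's reads relative to the TMM-normalized size of its library, and are not comparable between genes because they are not divided by gene length.

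The cells carried Ewing sarcoma markers in both groups. The summed CPM of 7 such markers was 1757 to 1775 in DAF-mut9 and 2582 to 3132 in mut9, and 5 of the 7 were called lower in DAF-mut9. Most of this sum was CCND1, at 1654 to 1671 CPM in DAF-mut9 and 2159 to 2602 CPM in mut9. CD99, a surface marker of Ewing sarcoma that lies in the pseudoautosomal region, held only 0 to 3 counts per library. Leukocyte markers summed to 2.09 to 2.67 CPM in DAF-mut9 and 2.36 to 3.44 in mut9, with CD3E at 0 throughout and CD79A called lower. Erythroid, epithelial, melanocyte and muscle markers had no call and sums of at most 3.64 CPM. In the hepatocyte list ALB held 0 to 2 counts, while APOA1, an apolipoprotein, was called higher.

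FLI1 and EWSR1 transcripts were not called different between the groups. The libraries did not overlap for either gene, as was also true of 29.8% of all tested genes. FLI1, whose counts include the fusion and construct sequence, measured 34.6, 37.04 and 37.3 CPM in DAF-mut9 and 28.3, 33.4 and 30.4 CPM in mut9. Its log2 fold change was 0.24 ± 0.13 (SE, adjusted p = 0.317, edgeR quasi-likelihood test). EWSR1 stood at 242 ± 10.3 CPM in DAF-mut9 and 267 ± 3.10 in mut9 (mean ± SD, n = 3 each), with a log2 fold change of -0.15 ± 0.09 (adjusted p = 0.411). Protein was not measured in these files.

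Replacing the tyrosines moved 3003 of 30549 tested genes (9.83%) at an adjusted p below 0.05. Of these, 1572 were higher in DAF-mut9 (5.15% of tested genes) and 1431 were lower (4.68%). The lower genes moved farther. Their median log2 fold change was -1.38, against 1.00 for the higher genes, and 458 of them passed a 4-fold change compared with 185 of the higher genes. A 2-fold change was passed by 1723 called genes (5.64% of tested genes). The 1431 lower genes were also expressed at lower levels than the higher genes, with medians of 4.09 and 20.8 CPM over the 6 libraries. The median of all tested genes was 0.656 CPM. Of the 3003, 2999 moved in one direction in all 3 replicate sets, and in 2934 the 2 groups did not overlap, as was also true of 29.8% of all tested genes. Protein-coding genes accounted for 1340 of the higher and 1031 of the lower genes, and lncRNA genes for 148 and 248. Without mut9 replicate 2 the count fell to 1754, and without DAF-mut9 replicate 2 to 1830, whereas a fit to the 6 libraries alone gave 4848.

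**Figure D1:**
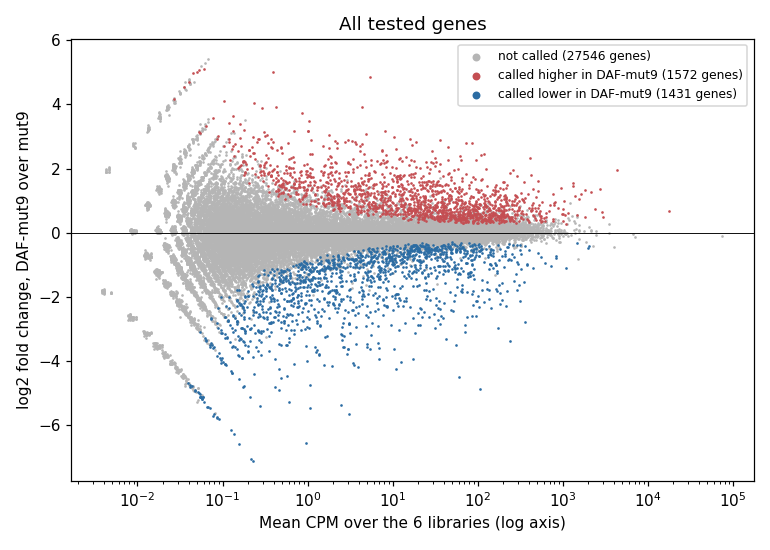
Each point is 1 of the tested genes, with its mean CPM over the 6 libraries on a log axis and its log2 fold change, DAF-mut9 over mut9, on the vertical axis. Red points are the 1572 genes called higher, blue points the 1431 called lower, and the blue points reach farther from 0.

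The genes with the largest falls included growth factors, receptors, channels and synaptic proteins. They were chosen on these same 6 libraries, so the separation of the 2 groups in them is no result. IGF1, insulin-like growth factor 1 (chr12:102789652-102875522), measured 3.49, 5.10 and 6.39 CPM in DAF-mut9 and 108, 144 and 91.2 CPM in mut9. Its level was 22.6-fold lower with the tyrosines replaced (log2 fold change -4.50 ± 0.26, adjusted p = 9.87e-10, edgeR). Every DAF-mut9 library lay far below every mut9 library and near the 4.49 CPM of iEF cells. PDGFD, a platelet-derived growth factor, fell from 18.6, 36.1 and 15.9 CPM to 1.23, 1.56 and 1.48 CPM, a log2 fold change of -4.03 ± 0.29. APELA, a peptide ligand of the apelin receptor, stood at 13.7, 37.2 and 11.9 CPM in mut9 and at 0.924, 1.26 and 0.893 CPM in DAF-mut9 (log2 fold change -4.24 ± 0.33). In both genes mut9 replicate 2 was the highest library, and the remaining mut9 libraries still lay well above all DAF-mut9 libraries.

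Among receptors, the leukotriene receptor CYSLTR1 and the G-protein-coupled receptor GPR174 had log2 fold changes of -3.57 ± 0.40 and -3.93 ± 0.42. Ion channel genes belonged to the same group. KCNH5, a voltage-gated potassium channel, and SCNN1G, a subunit of the epithelial sodium channel, changed by -3.94 ± 0.30 and -3.64 ± 0.37. DLG2, a synaptic scaffold, fell from 410, 581 and 343 CPM to 38.8, 43.0 and 42.5 CPM, 10.5-fold. CYP4F22, a fatty acid hydroxylase, CSPG5, a neural proteoglycan, and DKK2, a secreted Wnt modulator, changed by -3.61 ± 0.29, -3.58 ± 0.27 and -3.51 ± 0.32.

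**Figure D2:**
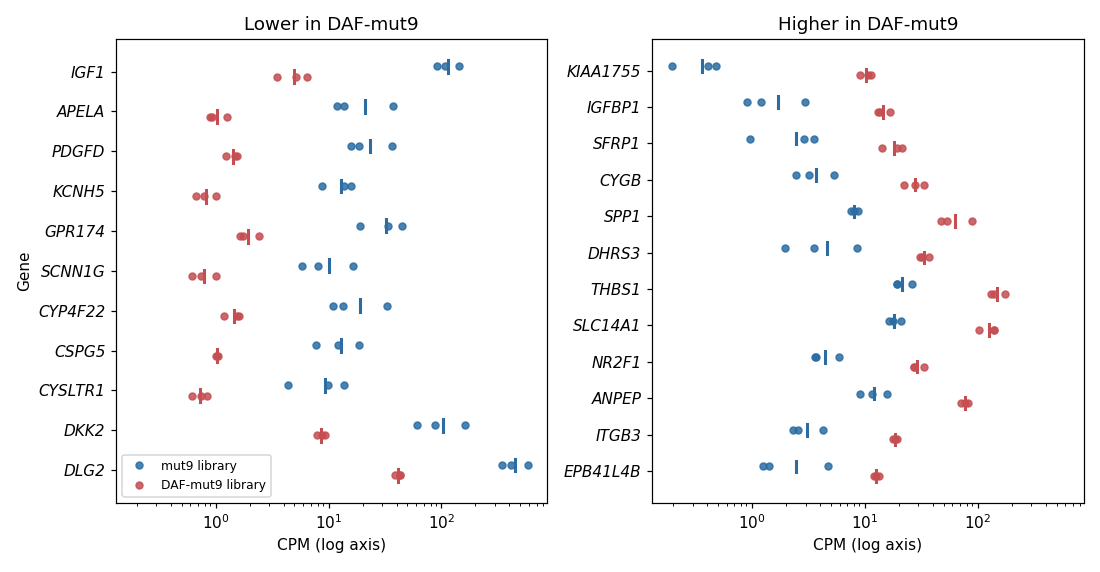
CPM on a log axis in each library for the 23 genes named for the largest falls (left) and rises (right). Points are libraries (blue mut9, red DAF-mut9, 3 each), bars are group means, with falls of 10.5-fold for DLG2 and 22.6-fold for IGF1 and a rise of 6.94-fold for THBS1, and since these libraries chose the genes, their separation is no result.

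The genes with the largest rises included secreted, matrix and surface proteins. THBS1, thrombospondin 1 (chr15:39873280-39891667), measured 132, 176 and 140 CPM in DAF-mut9 and 19.2, 19.2 and 26.4 CPM in mut9, a 6.94-fold rise (log2 fold change 2.80 ± 0.14, adjusted p = 3.43e-10, edgeR). IGFBP1, which binds insulin-like growth factors, rose from 0.902, 1.20 and 3.00 CPM to 13.3, 13.8 and 16.8 CPM. SFRP1, a secreted Wnt antagonist, rose from 0.971, 2.92 and 3.55 CPM to 14.3, 19.4 and 21.3 CPM. For each of these 3 genes the lowest DAF-mut9 library exceeded the highest mut9 library several times over. Because the same libraries chose the genes, this separation is no result either.

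KIAA1755 had the largest rise by the naming rule, from 0.486, 0.196 and 0.407 CPM to 9.14, 11.3 and 10.7 CPM (log2 fold change 4.84 ± 0.56). ITGB3, the integrin beta 3 chain, and ANPEP, a membrane aminopeptidase, changed by 2.61 ± 0.26 and 2.68 ± 0.26. SPP1, which encodes osteopontin, was at 89.8, 53.3 and 47.8 CPM in DAF-mut9 and 8.67, 7.54 and 8.11 CPM in mut9. DHRS3, a retinaldehyde reductase, was less even in mut9, at 3.54, 1.99 and 8.49 CPM, against 32.1, 31.1 and 36.9 CPM in DAF-mut9, and its call was lost on the ComBat-adjusted values (adjusted p = 0.0554, limma). Rises of 2.58 to 2.91 on the log2 scale were found in CYGB, the globin cytoglobin, SLC14A1, a urea transporter, NR2F1, an orphan nuclear receptor, and EPB41L4B. Exons of CYGB and ITGB3 overlap another gene on the same strand, whose reads cannot be told apart from theirs.

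Of 26 known targets that the fusion activates, 18 were called, each of them lower, a share of 69.2% beside 9.83% of all tested genes. Their list had a median log2 fold change of -1.11 against -0.04 over all tested genes. Apart from the cytokine, growth and housekeeping lists, the share called in the lists below ran from 21.4% to 100%, beside the same 9.83%. These lists were chosen with earlier results of these data known. NR0B1, a nuclear receptor required for growth of Ewing sarcoma cells, measured 56.6, 41.7 and 41.1 CPM in mut9 and 5.50, 7.11 and 10.4 CPM in DAF-mut9. The groups were separate, and the log2 fold change was -2.62 ± 0.28 (adjusted p = 2.09e-06, edgeR), a 6.16-fold difference. PRKCB, protein kinase C beta, fell from 301, 412 and 219 CPM to 36.1, 40.8 and 41.9 CPM (log2 fold change -2.96 ± 0.20). FCGRT, the neonatal Fc receptor, the lipase-family gene LIPI and GSTM4, a glutathione transferase, changed by -2.60 ± 0.18, -2.54 ± 0.19 and -1.98 ± 0.25. GLI1, the Hedgehog transcription factor, was low in both groups, at 1.20, 1.69 and 1.05 CPM in mut9 and 0.334, 0.329 and 0.391 CPM in DAF-mut9, and its change of -1.88 ± 0.36 passed the test, but not on the ComBat-adjusted values (adjusted p = 0.156, limma).

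Other activated targets moved little. CCND1, cyclin D1, changed by only -0.47 ± 0.11, from 2602, 2159 and 2190 CPM to 1671, 1654 and 1662 CPM. NKX2-2, a homeodomain repressor needed for transformation in this disease, stood at 2.50, 4.05 and 1.57 CPM in mut9 and 1.64, 2.09 and 1.23 CPM in DAF-mut9. These values overlapped, and the change of -0.69 ± 0.25 did not pass (adjusted p = 0.104, edgeR). SOX2 showed no detectable difference, at 86.4 ± 16.5 CPM in mut9 and 80.2 ± 6.94 in DAF-mut9 (log2 fold change -0.11 ± 0.17, adjusted p = 0.810).

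Of 12 tested targets that the fusion represses, 6 were called, each of them higher, with a median log2 fold change of 0.78. IGFBP3, which binds insulin-like growth factors, measured 6780, 7489 and 6267 CPM in DAF-mut9 and 1718, 1288 and 2214 CPM in mut9, a change of 1.96 ± 0.24. TGFBR2, the type II TGF-beta receptor, stood at 206, 216 and 200 CPM against 134, 110 and 104 CPM (0.84 ± 0.18). The cell cycle inhibitor CDKN1A and the matricellular gene CCN1 showed differences of only 0.11 ± 0.21 and -0.01 ± 0.21, and neither was called.

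Of 20 tested transcription factors of neural identity, 8 were called, each of them lower, and 12 were not called. With DESeq2, with RLE, with either other count filter and on the ComBat-adjusted values 1 member was called higher, and with the 6 libraries alone 2 were. ISL1, a LIM-homeodomain factor, fell from 7.33, 10.7 and 5.87 CPM to 2.88, 2.39 and 2.34 CPM (log2 fold change -1.65 ± 0.21). OTX2, POU4F1, POU3F2, DLX5, DLX6, SOX1 and ZIC2 were the others, with changes of -1.28 to -0.77. In the HOXD cluster, which patterns limb and trunk, 7 of 10 tested genes were called, each of them lower, and HOXD10, HOXD11 and HOXD13 were also members of the activated target list. HOXD9 stood at 14.7, 18.7 and 11.4 CPM in mut9 and 6.55, 6.72 and 6.06 CPM in DAF-mut9. EVX2, at the end of the cluster, had the largest change, -1.80 ± 0.33, whereas HOXD1, at the other end, was not called (0.81 ± 0.41, adjusted p = 0.266).

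Neuroendocrine and synaptic genes were divided. Of 22 tested, 7 were lower, 1 was higher and 14 were not called. PCSK2, a prohormone convertase, fell from 47.4, 69.5 and 50.3 CPM to 6.50, 6.64 and 8.15 CPM (log2 fold change -2.96 ± 0.17). The peptide genes NPY, GRP, CALCA and CALCB changed by -2.63 ± 0.33, -2.06 ± 0.22, -3.49 ± 0.53 and -1.79 ± 0.24, and the vesicle genes SYT1 and SYP each by -1.21. SCG2, a granin, was the gene that rose (0.70 ± 0.20). It lost this call with no replicate block and without DAF-mut9 replicate 2, mut9 replicate 1 or mut9 replicate 3. ENO2 and UCHL1, used as neuroendocrine markers, were at 29.7 and 139 CPM in DAF-mut9 and 28.0 and 133 CPM in mut9.

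Potassium channels and axon guidance genes changed in both directions. Of 26 channel genes tested, 6 were lower and 4 higher. KCNA2, a voltage-gated channel with the microsatellite shown above, fell from 8.35, 13.1 and 6.98 CPM to 2.23, 2.83 and 2.20 CPM (log2 fold change -1.95 ± 0.20). The calcium-activated channels KCNMA1 and KCNN4 rose instead, by 1.86 ± 0.23 and 1.67 ± 0.20. Of 31 guidance genes, 5 were lower and 8 higher. The receptors EPHA5, ROBO2, EPHB3 and DCC and the ligand EFNB1 changed by -2.82 ± 0.26, -2.14 ± 0.20, -1.67 ± 0.34, -1.64 ± 0.13 and -1.29 ± 0.14. The semaphorin receptors PLXNA2 and NRP1 and the netrin NTN4 rose, by 1.74 ± 0.24, 0.91 ± 0.20 and 1.68 ± 0.17.

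**Figure D3:**
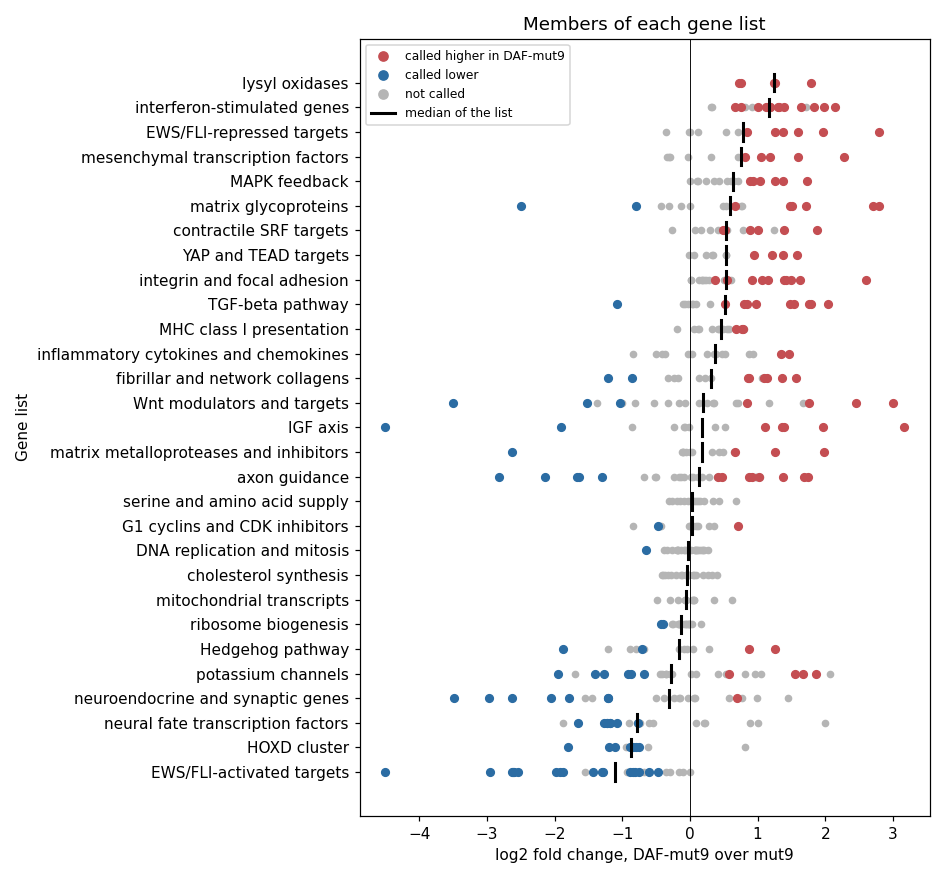
Each row is a gene list, each point the log2 fold change (DAF-mut9 over mut9) of a tested member, red if called higher, blue if called lower and grey if not called, and the black bar is the list median. Medians run from -1.11 in activated targets to 1.24 in lysyl oxidases.

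In the IGF axis the ligand gene IGF1 and part of the binding protein genes moved apart. IGF1 fell as described, and IRS2, an adaptor below the receptor, fell from 135 to 36.2 CPM (log2 fold change -1.91 ± 0.21). The binding protein genes IGFBP1, IGFBP3, IGFBP5, IGFBP6 and IGFBP7 rose, by 3.16 ± 0.34, 1.96 ± 0.24, 1.35 ± 0.23, 1.38 ± 0.18 and 1.10 ± 0.23. The receptor IGF1R was at 54.6 CPM in DAF-mut9 and 55.4 CPM in mut9. The other ligand gene, IGF2, and the binding protein genes IGFBP2 and IGFBP4 were not called. In all, 7 of 14 genes of the axis were called. The count was 7 whichever of the 6 libraries was left out, but 3 on the ComBat-adjusted values, of which 1 was higher. IGFBP1, IGFBP3 or both were not among the genes tested on those values, so the smaller count is not only a loss of calls.

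Secreted Wnt modulators also moved apart. Among 22 tested Wnt genes, 4 were higher and 3 lower. DKK2 stood at 87.0, 160 and 61.1 CPM in mut9 and at 8.73, 7.87 and 9.32 CPM in DAF-mut9. DKK3 showed the opposite order, at 35.9, 34.1 and 39.9 CPM and at 198, 224 and 189 CPM. SFRP1, WNT5A and WNT5B were higher as well, and the transcriptional target genes AXIN2 and LGR5 were not called. In the Hedgehog pathway 4 of 13 genes were called. GLI1 and PTCH1, which are both targets of the pathway, were lower, and GLI2 and the coreceptor BOC were higher.

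Of 17 genes of the TGF-beta pathway, 9 were higher and 1 lower. The latent TGF-beta binding protein LTBP1 measured 43.7, 43.6 and 35.2 CPM in DAF-mut9 and 9.66, 7.66 and 12.5 CPM in mut9 (log2 fold change 2.04 ± 0.19). The ligands TGFB2, INHBA and BMP4 rose by 1.48 ± 0.44, 1.53 ± 0.26 and 1.79 ± 0.48, and the receptors TGFBR1 and TGFBR2 by 0.98 ± 0.12 and 0.84 ± 0.18. TGFB1 itself was at 39.1 and 38.1 CPM. SMAD6, an inhibitor of BMP signalling, was the gene that fell (-1.08 ± 0.30). It lost this call with no replicate block and when any single library other than mut9 replicate 1 was left out. The number called dropped to 6 without DAF-mut9 replicate 1, DAF-mut9 replicate 3 or mut9 replicate 2.

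Matrix genes changed in both directions. Of 15 collagens 6 were higher and 2 lower, and of 16 matrix glycoproteins 6 were higher and 2 lower. COL6A1 and COL6A2, chains of the microfibrillar collagen VI, measured 523 ± 76.6 and 652 ± 54.9 CPM in DAF-mut9 and 176 ± 51.9 and 253 ± 72.3 CPM in mut9 (n = 3 each). POSTN, periostin, rose from 23.6, 31.0 and 40.4 CPM to 94.0, 107 and 94.7 CPM, and did not pass on the ComBat-adjusted values (adjusted p = 0.189, limma). COL8A1 went the other way, from 123, 104 and 124 CPM to 51.6, 51.3 and 48.6 CPM (log2 fold change -1.21 ± 0.16). SPARC, a collagen-binding glycoprotein, was not called. Without mut9 replicate 2 there were 5 calls in each of these lists, and 5 glycoproteins were called without DAF-mut9 replicate 2 or on the ComBat-adjusted values.

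All 5 lysyl oxidases, the enzymes that cross-link collagen and elastin, were called higher, with changes of 0.73 to 1.78. LOX stood at 250, 228 and 188 CPM in DAF-mut9 and 97.6, 49.8 and 140 CPM in mut9. This count rested on single libraries, since it was 1 without mut9 replicate 2, 2 without DAF-mut9 replicate 3, 3 without DAF-mut9 replicate 1 or mut9 replicate 3, and 2 on the ComBat-adjusted values. Among 14 metalloproteases and inhibitors, MMP1, MMP14 and TIMP3 were higher. MMP1 lost its call without DAF-mut9 replicate 2, mut9 replicate 1 or mut9 replicate 2. MMP9, gelatinase B, was lower, at 3.60, 8.97 and 7.81 CPM in DAF-mut9 and 43.4, 25.3 and 44.7 CPM in mut9 (log2 fold change -2.63 ± 0.51).

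Part of the adhesion and contractile genes were higher, with no member called lower. Of 20 integrin and focal adhesion genes 10 were higher, among them ITGA3 at 321, 341 and 326 CPM against 129, 89.2 and 135 CPM, and ITGB8 at 93.7, 109 and 96.3 CPM against 28.0, 35.2 and 33.9 CPM. The intracellular components TLN1, PXN, ZYX, PTK2 and FLNA were not called, with changes of 0.02 to 0.29. Of 14 contractile targets of SRF 6 were higher, including CNN1, calponin 1 (1.88 ± 0.35), and TPM1, a tropomyosin (1.01 ± 0.23). This number was 2 without mut9 replicate 2 and 3 without mut9 replicate 1, DAF-mut9 replicate 1 or DAF-mut9 replicate 2. Of 11 YAP and TEAD targets 4 were higher, with AXL and NT5E at 1.58 ± 0.26 and 1.22 ± 0.17. On the ComBat-adjusted values 2 of these were called, and neither NT5E nor ITGA3 was (adjusted p = 0.157 and 0.176, limma).

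Among 12 mesenchymal transcription factors 5 were higher. ZEB1, a repressor of epithelial genes, rose from 19.0, 20.5 and 26.3 CPM to 88.3, 107 and 124 CPM, and PRRX1, a limb mesenchyme factor, from 106, 80.4 and 109 CPM to 301, 302 and 294 CPM. The related factor ZEB2 was not called (-0.30 ± 0.13, adjusted p = 0.159). TWIST1 was at 12.1 and 12.3 CPM. Without DAF-mut9 replicate 2 or mut9 replicate 2 the number was 3. Of 16 feedback genes of the MAPK pathway 6 were higher, with DUSP4, a MAP kinase phosphatase, at 125, 128 and 155 CPM against 35.2, 43.1 and 44.2 CPM, and SPRY2 at 1.26 ± 0.23. EGR1 and DUSP6 were not called.

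Of 20 interferon-stimulated genes 14 were higher in DAF-mut9, with a median log2 fold change of 1.17. OAS2, an oligoadenylate synthetase, measured 51.5, 54.4 and 74.0 CPM in DAF-mut9 and 20.4, 4.44 and 13.3 CPM in mut9 (2.14 ± 0.51). MX2, an interferon-induced GTPase, measured 38.7, 38.2 and 56.5 CPM against 16.1, 2.65 and 13.8 CPM. mut9 replicate 2 was the lowest library for both genes, and without it 6 of the 20 genes were called. The number was 7 without DAF-mut9 replicate 1 or DAF-mut9 replicate 3, 8 without mut9 replicate 3 and 8 on the ComBat-adjusted values. Of 14 genes of MHC class I presentation, TAP1, NLRC5 and ERAP2 were higher. No member of this list was called without mut9 replicate 2, 1 was without DAF-mut9 replicate 3, and 6 were without mut9 replicate 1. Among 16 cytokines and chemokines IL11 and LIF were higher, a share of 12.5% beside 9.83% of all tested genes called. LIF lost its call without DAF-mut9 replicate 2, DAF-mut9 replicate 3 or mut9 replicate 2. No member of this list was called on the ComBat-adjusted values, where LIF was not among the genes tested. CCL2 and CXCL8 were not called (0.25 ± 0.45 and 0.93 ± 0.37).

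In the growth and housekeeping lists the share of genes called ran from 0.0% to 15.4%, beside 9.83% of all tested genes. Of 25 replication and mitosis genes only MCM6, a subunit of the replicative helicase, was called (-0.64 ± 0.15), a share of 4.0%. It lost its call without mut9 replicate 2. MKI67 was at 461 CPM in DAF-mut9 and 450 CPM in mut9. Of 13 G1 regulators, CCND1 was lower and CDK6 higher (0.72 ± 0.21), a share of 15.4%. Neither was called without DAF-mut9 replicate 1 or mut9 replicate 1. Of 19 ribosome biogenesis genes WDR12 and NHP2 were lower, with changes of -0.43 ± 0.10 and -0.40 ± 0.13, a share of 10.5% beside the 9.83% over all genes. Neither was called without mut9 replicate 2 and 1 of them was without any other single library, and NHP2 lost its call in 9 of 13 alternatives. Among the 19 genes 17 had a negative change, with a median of -0.13 against -0.04 over all tested genes. No gene was called by edgeR among 20 of cholesterol synthesis, 17 of serine and amino acid supply and 13 mitochondrial transcripts, where 3, 1 and 1 had an unadjusted p below 0.05. The medians were -0.05, 0.03 and -0.05. DESeq2 called 1 gene of the serine and amino acid list and none in the others, and a fit to the 6 libraries alone called 4, 4 and 3.

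The calls were set beside 2 comparisons that share no library with DAF-mut9 and mut9. Genes lower in DAF-mut9 were mostly genes that the endogenous fusion activates, and genes higher in DAF-mut9 mostly genes that it represses. In iLuc over iEF, 18.7% of all tested genes were higher and 22.4% lower. Of the 1431 genes lower in DAF-mut9, 1086 (75.9%) were higher in iLuc and 65 (4.54%) lower. Of the 1572 genes higher in DAF-mut9, 1401 (89.1%) were lower in iLuc and 23 (1.46%) higher. Seen from the other side, 19.0% of the genes higher in iLuc were lower in DAF-mut9, and 20.5% of the genes lower in iLuc were higher in DAF-mut9.

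DAF over WT-EF gave a similar picture for the full-length domain. Of the genes lower in DAF-mut9, 921 (64.4%) were lower in DAF and 43 (3.00%) higher, where 10.6% and 14.3% of all tested genes were. Of the genes higher in DAF-mut9, 1319 (83.9%) were higher in DAF and 5 (0.318%) lower. Across the 3003 genes the 2 log2 fold changes had a Pearson correlation of 0.788, given as a description because genes are not independent replicates and the genes were called on 1 of the 2 values.

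**Figure D4:**
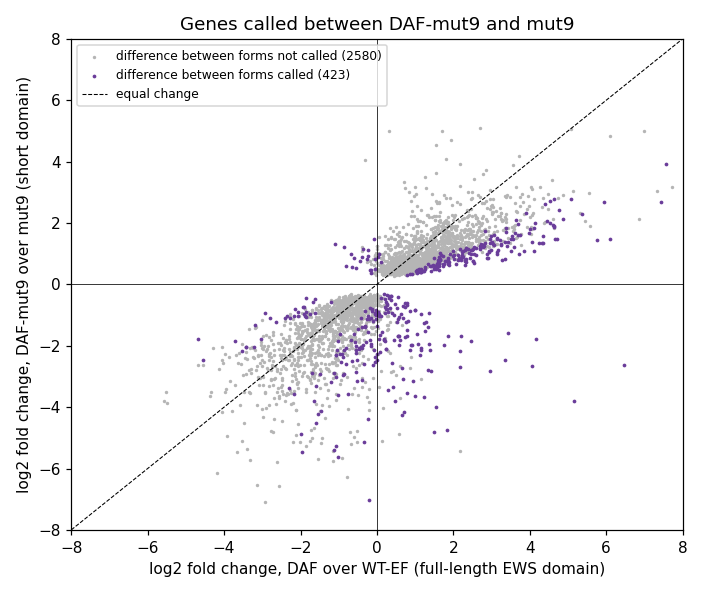
log2 fold change with part of the repeat tyrosines replaced in the full-length domain (DAF over WT-EF, horizontal) and with all replaced in the short domain (DAF-mut9 over mut9, vertical). Shown are the 3003 genes called in the short domain, 1 of which lies outside the axes. In 423 genes (purple) the 2 changes differed by the interaction test, and many of these lie below the line of equal change.

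The difference between the 2 changes was tested directly as an interaction, the log2 change in the short form minus that in the full-length form. The comparisons differ both in the length of the domain and in the tyrosines replaced, which the test cannot tell apart. The test used 12 libraries and passed in 1017 genes (3.33%), 863 with a negative value (2.82%) and 154 with a positive value (0.504%). A negative value means a deeper fall or a smaller rise in the short form. IGF1 showed a deeper fall, -4.50 in the short form and -1.60 in the full-length form (interaction -2.91 ± 0.32, adjusted p = 2.08e-05, edgeR). NR0B1 fell by 2.62 on the log2 scale in the short form, while DAF and WT-EF stood at 27.3 and 28.4 CPM (interaction -2.52 ± 0.38). PRKCB, APELA, CYP4F22 and CYSLTR1 showed the same order, with interactions of -2.06 to -2.80. On the ComBat-adjusted values the interaction did not pass for IGF1, APELA, CYP4F22 or CYSLTR1 (adjusted p = 0.088, 0.191, 0.225 and 0.0697, limma).

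Some genes showed a smaller rise in the short form. THBS1 rose by 2.80 ± 0.14 in the short form and by 4.64 ± 0.16 in the full-length form (interaction -1.85 ± 0.19). For THBS1, WT-EF held 5.52 CPM and mut9 21.6 CPM, whereas DAF and DAF-mut9 held 138 and 150 CPM. IGFBP3, ITGB3 and ITGA3 had interactions of -1.74 ± 0.33, -1.80 ± 0.38 and -1.46 ± 0.25. The interaction did not pass on the ComBat-adjusted values for THBS1 (-1.28, adjusted p = 0.569, limma) or ITGA3 (adjusted p = 0.585), nor without WT-EF replicate 2 for ITGB3 (adjusted p = 0.0587, edgeR). MMP9 reversed. It was lower in DAF-mut9 than in mut9, and higher in DAF, at 130 CPM, than in WT-EF, at 1.28 CPM (interaction -9.11 ± 0.79, adjusted p = 1.68e-06, edgeR). COL8A1 also reversed, with -1.21 ± 0.16 in the short form and 1.28 in the full-length form.

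A few genes had positive values. CALCB, a calcitonin gene-related peptide, fell from 39.9 to 1.56 CPM between WT-EF and DAF and from 4.74 to 1.36 CPM between mut9 and DAF-mut9 (interaction 2.89 ± 0.34, lost on the ComBat-adjusted values with adjusted p = 0.0697, limma). GLI2 stood at 8.51 CPM in DAF and 12.5 CPM in WT-EF, and at 14.0 CPM in DAF-mut9 and 7.72 CPM in mut9 (interaction 1.46 ± 0.26).

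DAF-mut9 and mut9 were each also compared with the iEF baseline, and these comparisons share their iEF libraries with each other. The 1431 and 1572 genes below were called on the same DAF-mut9 and mut9 libraries. A gap between DAF-mut9 and mut9 in their values over iEF is therefore partly fixed by that choice of genes. The 1431 genes lower in DAF-mut9 had a median log2 fold change over iEF of -0.04 with DAF-mut9 and 1.27 with mut9. Of these genes 1042 were called above iEF with mut9, and with DAF-mut9 71 were above and 76 below. The 1572 genes higher in DAF-mut9 had medians of 0.11 with DAF-mut9 and -0.83 with mut9, and 1055 were called below iEF with mut9. With DAF-mut9, 124 of them were above and 61 below iEF. Over all tested genes 1038 (3.40%) were called between DAF-mut9 and iEF and 4445 (14.6%) between mut9 and iEF, of which 6.22% of tested genes were above and 8.33% below iEF. Between DAF-mut9 and del22, 0 genes were called by edgeR. Of the 30549 tested genes 671 had an unadjusted p below 0.05, a share that is itself below 0.05. ROBO2 differed between DAF-mut9 and iEF. It measured 155 CPM with mut9 and 35.3 CPM with DAF-mut9, which was above iEF (log2 fold change 1.81, adjusted p = 4.73e-05, edgeR).

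Long GGAA microsatellites lay near a larger share of lower genes than of higher genes. The search covered the 27244 tested genes with a place in the annotation. Of the 338 genes with at least 8 consecutive GGAA units within 5 kb of the start site, 78 (23.1%) were lower and 9 (2.66%) higher, where 4.82% and 5.62% of the 26906 remaining genes were. Such a run was found near 5.67% of the lower genes, 11.6% of those that fell at least 4-fold, 0.592% of the higher genes and 1.24% of all 27244. These shares are counts with no test, and a run near a start site does not show that the fusion binds there.

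The share of lower genes differed by repeat length. It was 4.78% of 26318 genes with no run of at least 4 units, 6.80% of 588 genes with 4 to 7 units, 15.8% of 165 genes with 8 to 11 units and 30.1% of 173 genes with 12 units or more. The share of higher genes was 5.60%, 6.46%, 3.03% and 2.31% in the same order. For genes with 12 units or more, 28.9% were lower in DAF than in WT-EF, 30.6% were above iEF with mut9 and 2.89% were above iEF with DAF-mut9. For genes with no run these shares were 11.1%, 6.41% and 1.36%. The interaction was negative in 12.1% of the genes with 12 units or more and positive in 1.16%, against 2.96% and 0.536% of the genes with no run.

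**Figure D5:**
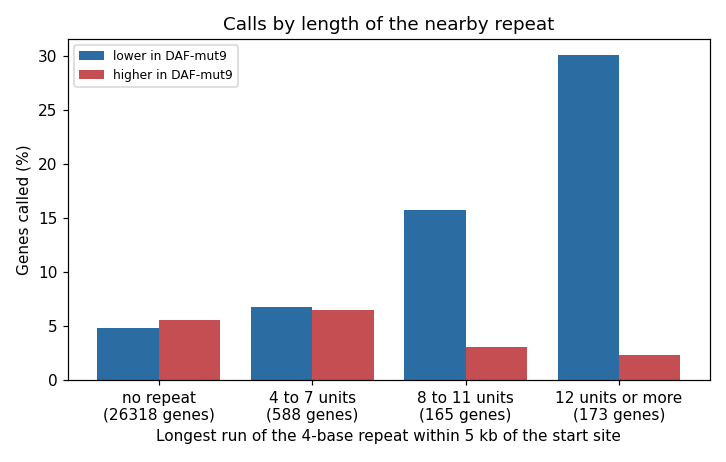
Percentage of genes called lower (blue) and higher (red) in DAF-mut9 than in mut9, by the longest run of the 4-base microsatellite unit within 5 kb of the start site. The blue bars are 4.78%, 6.80%, 15.8% and 30.1% from no repeat to 12 units or more, and the red bars stay at or below 6.46%.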

How the data were processed

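Per the labels, RNA was taken from A673 cells after knockdown and rescue, and libraries were made with the ScriptSeq kit. The authors aligned reads to hg19 with STAR (version 2.5.1b in the submitters' processing notes) and deposited raw counts per Ensembl gene from htseq-count. The strand setting and annotation release are not given in the sources used here, so reads of overlapping or antisense genes cannot be told apart. Of the 97 named genes, 44 shared exon bases with a gene on the opposite strand and 4 (CYGB, ITGB3, TAGLN and CALCB) with a gene on the same strand. The authors also deposited ComBat-adjusted counts, a signal adjusted for replicate set, used here only as an alternative. The table of the authors' own comparisons holds fold changes and p-values and was not used. Count columns with the name mut9d were taken to be DAF-mut9 by elimination among the titles. If that is wrong, so is each DAF-mut9 value.

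Of 57820 genes, 48035 had a count, and the 30549 that averaged 1 count or more over the libraries were tested. The model was quasi-likelihood (edgeR 4.0.16, R 4.3.3, TMM) on the 21 libraries together, with terms for group and for replicate set, and with Benjamini-Hochberg adjustment over all tested genes and calls at 0.05. A log2 fold change is DAF-mut9 over mut9 unless another pair is named, ± its SE. log2 CPM values used a prior count of 2. The replicate set was kept as a block because the authors adjusted for it. Replicates are separate knockdown and rescue experiments in 1 line. No pair of replicates was alike to within sampling noise, and their Pearson correlations were 0.985 to 0.990.

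Named genes were FLI1, EWSR1, 7 target genes, the 12 largest rises and 12 largest falls among called genes with a symbol, 5 CPM or more on average and one direction in all 3 sets, up to 3 called genes by size of change from each of 29 lists (1 CPM or more on average), and 3 genes each way for the interaction. A few genes that the rule selects are not reported here. Further list members are named as examples, chosen after their values were seen. The comparison, the lists and the rule were chosen with earlier results of these data known. The GRCh37 version of GENCODE 44 gave symbols for 29538 tested genes and all coordinates. Scripts were tested on simulated counts. Alternatives were DESeq2 1.42.0 with the block, no block, RLE, other count filters, the compared groups alone, limma 3.58.1 on ComBat-adjusted counts, a 2-fold requirement and leaving out each of the 6 DAF-mut9 and mut9 libraries. Leaving out each DAF and WT-EF library, for the interaction, was added after seeing the data.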

Additional observations from a re-analysis of the deposited data

Results flagged for a closer look

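Of the 97 named genes, 30 had a change under tyrosine replacement that differed between the short and the full-length form by the edgeR interaction test, 24 with a negative and 6 with a positive value. The forms differ in length and in the tyrosines replaced, which cannot be told apart here. Values are the log2 change in the short form minus that in the full-length form, adjusted over all tested genes. Among genes lower in DAF-mut9 they were -2.52 for NR0B1, -2.91 for IGF1, -2.70 for APELA, -2.58 for CYP4F22, -1.40 for CSPG5, -2.80 for CYSLTR1, -1.08 for DLG2, -2.06 for PRKCB, -1.08 for ROBO2, -2.49 for COL8A1 and -9.11 for MMP9. Among genes higher in DAF-mut9 they were -1.74 for IGFBP3, -1.85 for THBS1, -1.81 for NR2F1, -1.80 for ITGB3, -1.40 for COL6A1, -1.46 for COL6A2, -1.46 for ITGA3, -2.68 for ANKRD1, -3.00 for LIF, -2.71 for OAS2, -1.74 for TAP1 and -6.61 for CXCL9, an interferon-induced chemokine. CXCL9 stood at 17.1 CPM in DAF, 0.0323 in WT-EF, 5.08 in DAF-mut9 and 0.865 in mut9.

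SERPINB4, a serpin, had -5.96, with 10.6 CPM in DAF and 0.154 in WT-EF but 10.3, 2.43 and 2.47 CPM in the mut9 libraries and 5.80, 4.77 and 4.19 CPM in DAF-mut9. Positive values were 1.41 for SOX1, 1.37 for GRP, 1.46 for GLI2, 2.89 for CALCB, 2.82 for POU1F1, a pituitary transcription factor, and 2.45 for IL17RD, an antagonist of FGF signalling. POU1F1 stood at 22.1 CPM in WT-EF and 1.69 in DAF, against 4.75 in mut9 and 2.56 in DAF-mut9. IL17RD stood at 15.4 CPM in WT-EF and 3.56 in DAF, against 6.33 in mut9 and 8.06 in DAF-mut9. Of the 30 interactions, 11 lost the call in none of the 19 refits. A gene missing from a refit was counted as keeping its call, and LIF, among the 11, was not tested on the ComBat-adjusted values. On those values 15 did not pass, those of THBS1, NR2F1, IGF1, APELA, CYP4F22, CSPG5, CYSLTR1, DLG2, SOX1, GRP, COL6A1, ITGA3, CALCB, POU1F1 and CXCL9. With 1 of the 12 libraries left out, the call was lost in 10 genes. OAS2 and CSPG5 lost it without 10 of the 12 libraries, DLG2, COL6A1 and ROBO2 without 9, COL6A2 and SOX1 without 8, NR2F1 without 6, and ITGB3 and GRP without 1 each. ROBO2 lost it whichever DAF-mut9 or mut9 library was left out (adjusted p = 0.0508 to 0.0765). All groups had 3 libraries, too few for a search for single libraries that stand apart.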

How the results depend on the processing

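The 3003 calls between DAF-mut9 and mut9 became 4848 when only the 6 compared libraries were fitted and 1723 with a 2-fold change required, and 1754 to 2550 when 1 library was left out. The 1017 interaction calls became 1613 with DESeq2 and the replicate block, 2007 with no low-count filter, 2408 with only the compared groups, and 505 (without mut9 replicate 1) to 1157 (without mut9 replicate 2) when 1 of the 12 libraries was left out. They also fell by over 1.5 times without DAF-mut9 replicate 1 (578), DAF replicate 2 (625), WT-EF replicate 2 (508) and WT-EF replicate 3 (646). Leaving out DAF and WT-EF libraries was chosen after seeing the data. The causes were not tested. Among called genes 52.3% were higher in DAF-mut9, and this share was 49.0% to 58.7% in the alternatives apart from the 2-fold requirement (45.3%). With no replicate block the counts were 2464, of which 2459 were also among the 3003, and 706. Deviations of same-numbered DAF-mut9 and mut9 libraries correlated at 0.00110, 0.190 and 0.295, and not every library correlated best with its own number, so the numbers were not shown to pair the samples. Of the 90 named genes called, 62 lost the call in none of the 13 alternatives other than the 2-fold requirement. Some genes were not tested in an alternative, such as the ComBat-adjusted values with 26131 tested genes, and were counted as keeping the call. In the list counts an untested member was counted as not called. No named gene changed direction where it was called. Most exposed were NHP2, which lost its call in 9 alternatives, LOXL3 and LOXL4 in 6 each, and CDK6, FOXC2 and XAF1 in 5 each. On the ComBat-adjusted values GLI1, LOX, DHRS3, SOX1, POSTN, ITGA3, NT5E and CXCL9 were among those that lost the call. With the block dropped, LOXL3, LOXL4, MMP1 and NHP2 lost the call between the groups, and CSPG5, DLG2, SOX1, COL6A1 and OAS2 that of the interaction. At 1 CPM the 6 libraries held only 34.4 to 43.3 counts, which limits what can be detected for genes at or below that level.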
